A study of Mus musculus with 60 samples.

Results

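A set of 10 genes that mark GABA-releasing neurons were followed through RNA sequencing of striatum, hippocampus and prefrontal cortex from mice that lack Adgrl3 (KO) and from wild-type mice (WT). The genes were Gad1, Gad2, Slc32a1, Pvalb, Sst, Vip, Npy, Cck, Calb1 and Lhx6. They were taken by gene name from a table of 21950 genes, and all 10 were found once each, so they make up 10 of 21950 rows. KO mice carried the genotype Adgrl3 -/- and WT mice Adgrl3 +/+, with no other allele or treatment named in the labels. Adgrl3, also written Lphn3, encodes latrophilin-3, an adhesion receptor of neurons. The mice were between postnatal days 65 and 76, and 12 mice of each genotype were used. Each genotype had 10 libraries per region, which makes 6 groups and 60 libraries. The labels used here do not say whether 1 library came from 1 mouse, nor the sex of the mice or which part of Adgrl3 is disrupted, so p-values measure the spread between libraries.

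GABA is the main inhibitory transmitter of the forebrain. Gad1 and Gad2 encode the enzymes that make GABA from glutamate, and Slc32a1 encodes the transporter that loads it into synaptic vesicles. These genes are used by local interneurons and, in the striatum, also by the projection neurons that form most of its neurons. The other members label subsets of interneurons: Pvalb encodes the calcium buffer parvalbumin of fast-spiking cells, and Sst, Vip, Npy and Cck encode the neuropeptides somatostatin, vasoactive intestinal peptide, neuropeptide Y and cholecystokinin. Calb1 encodes the calcium buffer calbindin, and Lhx6 is a transcription factor of interneurons born in the medial ganglionic eminence. Cck and Calb1 are also expressed by many excitatory neurons, and Calb1 by striatal projection neurons. In whole tissue, fewer cells of a type and less RNA per cell cannot be told apart.

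Libraries held 38985577 to 51387833 counted reads, and the library with the fewest reads on any member still had 102 reads (Vip). All 10 members passed the filter on low counts in every comparison. Adgrl3 was lower in every KO library than in every WT library of its region, with log2 differences of -1.96 ± 0.06 in the striatum, -1.84 ± 0.04 in the hippocampus and -2.09 ± 0.13 in the prefrontal cortex (SE). The region labels were checked against marker genes. The summed level of 8 striatal projection neuron markers was 4330 to 7169 CPM (counts relative to library size, scaled between libraries by the TMM method) in the KO and 4580 to 6796 CPM in the WT striatum. The same sum ran from 157.5 to 510.1 CPM over KO hippocampal libraries and from 157.4 to 487.6 CPM over WT ones. Over prefrontal libraries it ran from 169.9 to 209.2 CPM (KO) and from 165.5 to 204.4 CPM (WT). The sum of 8 cortical excitatory neuron markers was 2163 to 2417 (KO) and 2071 to 2358 CPM (WT) in the prefrontal cortex. It was 1507 to 1878 (KO) and 1480 to 1790 CPM (WT) in the hippocampus, and 460.2 to 1203 (KO) and 564 to 1010 CPM (WT) in the striatum. The sum of 8 hippocampal neuron markers was at least 564.8 CPM in hippocampal libraries and at most 304.9 CPM in the others. Markers of tissue outside the labelled region were present in some libraries, and the levels of some of these lists are given below beside members whose levels moved with them.

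The GABA synthesis and loading genes stood highest in the striatum. In the striatum Gad1 ran from 483 CPM through a median of 583 to 716 CPM over KO libraries, and from 513 through 608 to 705 CPM over WT libraries. In the hippocampus it ran from 318 through 331 to 364 CPM (KO) and from 323 through 336 to 360 CPM (WT), and in the prefrontal cortex from 269 through 282 to 328 CPM (KO) and from 291 through 334 to 368 CPM (WT). Every striatal library thus held more Gad1 than any library of the other regions, while hippocampal and prefrontal libraries overlapped. Gad2 averaged 411 ± 33.7 CPM in KO and 430 ± 17.8 CPM in WT striatum (SD, n = 10 each). Its hippocampal means were 182 ± 13.1 (KO) and 179 ± 16.3 CPM (WT), and its prefrontal means were 157 ± 5.82 (KO) and 164 ± 8.87 CPM (WT). Slc32a1 averaged 219.6 ± 23.4 CPM in KO and 224 ± 12.4 CPM in WT striatum. It was at 67.9 ± 7.78 (KO) and 69.7 ± 6.63 CPM (WT) in the hippocampus, and at 67.4 ± 4.11 (KO) and 69.3 ± 5.03 CPM (WT) in the prefrontal cortex. Slc32a1 was thus about equal in the hippocampus and prefrontal cortex, and no striatal library of either genotype reached down to them.

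**Figure D1:**
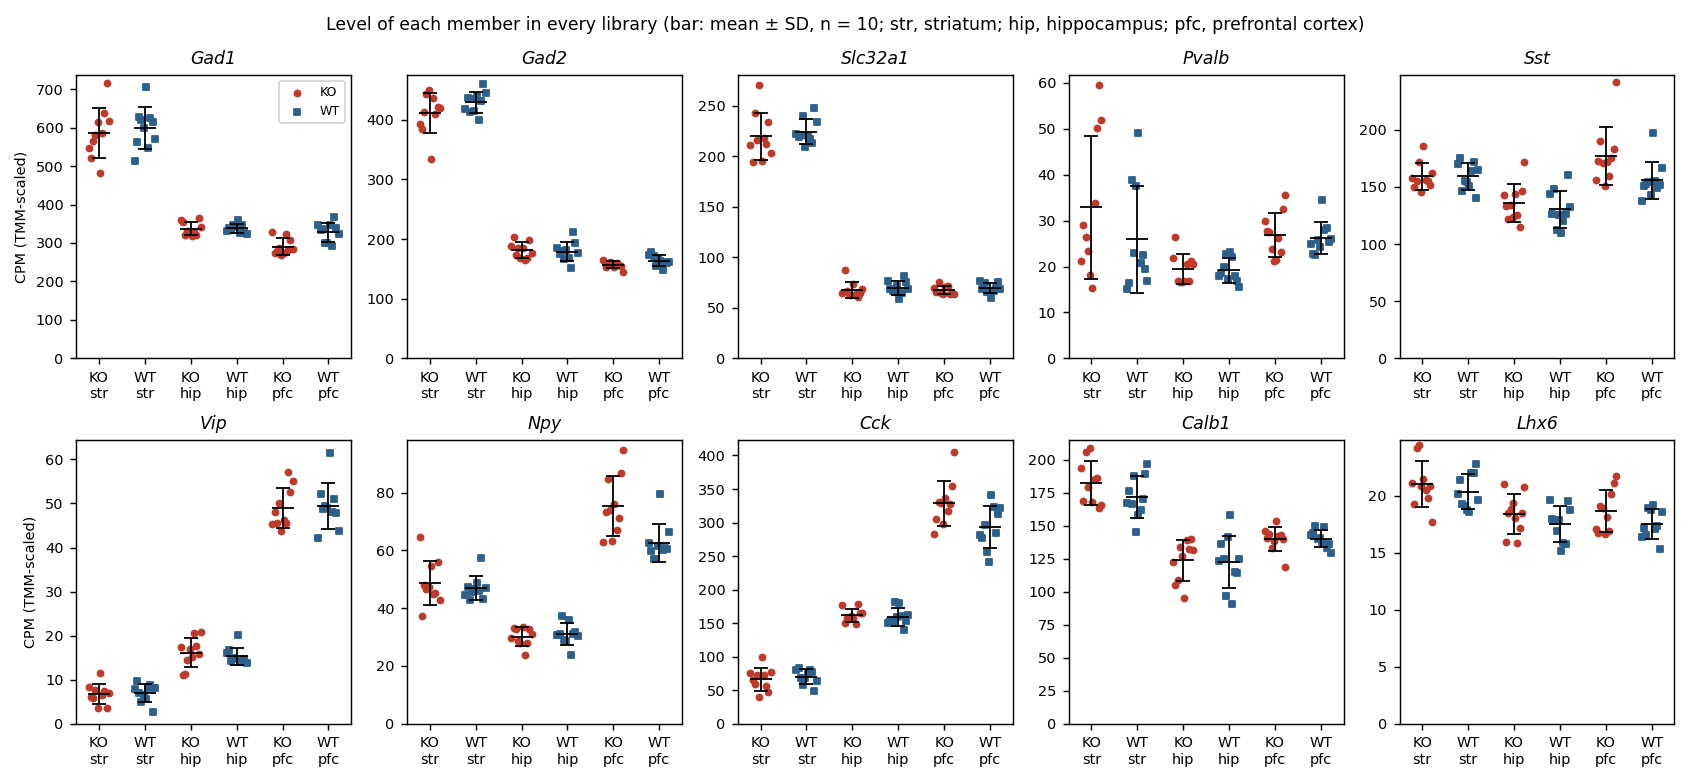
Level of each of the 10 members in CPM (vertical axis, linear, from 0) in every library of the 6 groups, KO (circles) left of WT (squares) in striatum (str), hippocampus (hip) and prefrontal cortex (pfc). Black bars are the mean ± SD of 10 libraries. Gad1, Gad2 and Slc32a1 stand highest in the striatum, Vip and Cck highest in the prefrontal cortex, and the KO and WT points of a region overlap for every member.

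Regions were compared within WT and, as a repeat in other libraries, within KO by edgeR's quasi-likelihood F test, adjusted over all genes by Benjamini-Hochberg. A gene was called where the adjusted p was under 0.05 and the absolute log2 difference at least 1. Between WT striatum and WT hippocampus, 2 of the 10 members were called higher in the striatum, against 5.12% of all genes tested, and 2 were called lower, against 5.06%. The higher ones were Slc32a1, with a log2 difference of 1.68 ± 0.05 (SE), and Gad2, with 1.26 ± 0.04. The lower ones were Cck, at -1.19 ± 0.08, and Vip, at -1.15 ± 0.13. Gad1 differed by 0.82 ± 0.04, with adjusted p = 2.56e-17 in the same edgeR test, and so stayed under the fold threshold. Npy (0.60 ± 0.06), Calb1 (0.49 ± 0.07), Pvalb (0.43 ± 0.17), Sst (0.29 ± 0.06) and Lhx6 (0.21 ± 0.05) also differed at an adjusted p under 0.05, as did 66.6% of all genes, and stayed under it.

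Between WT striatum and WT prefrontal cortex the same 4 genes were called. Slc32a1 was higher in the striatum by 1.69 ± 0.05 and Gad2 by 1.39 ± 0.04 on the log2 scale (2 of 10 members, against 7.07% of all genes). Vip was lower in the striatum, at -2.83 ± 0.13, and Cck at -2.07 ± 0.08 (2 of 10, against 4.54%). Gad1 differed by 0.87 ± 0.04, Npy by -0.41 ± 0.06, Calb1 by 0.30 ± 0.07 and Lhx6 by 0.22 ± 0.05, all at an adjusted p under 0.05, which 71.5% of all genes had. The intervals of Sst (0.03, 95% interval -0.09 to 0.16) and Pvalb (-0.01, -0.36 to 0.33) included 0. Between WT hippocampus and WT prefrontal cortex, Vip was lower in the hippocampus at -1.68 ± 0.12 and Npy at -1.01 ± 0.06 (2 of 10, against 4.16%), and 0 members were called higher, against 5.98% of all genes. By unadjusted p under 0.05, 7 of 10 members differed there, against 70.6% of all genes, and Cck, at -0.88 ± 0.08, came closest to the fold threshold. Slc32a1 (0.01, 95% interval -0.08 to 0.11), Lhx6 (0.00, -0.10 to 0.11) and Gad1 (0.05, -0.04 to 0.13) had intervals around 0.

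All calls made in WT were also made in KO. In KO, 4 members were called between striatum and hippocampus, 5 between striatum and prefrontal cortex, and 3 between hippocampus and prefrontal cortex, where 10.4%, 12.6% and 9.74% of all genes were called in either direction. The 2 calls not made in WT were Gad1 between striatum and prefrontal cortex, with 1.01 ± 0.05 in KO against 0.87 ± 0.04 in WT, and Cck between hippocampus and prefrontal cortex, with -1.03 ± 0.10 in KO against -0.88 ± 0.08 in WT. Both lie near the fold threshold in both genotypes. The libraries of 6 members did not overlap between WT striatum and WT hippocampus, as for 27.2% of all genes. The same held for 5 members between WT striatum and WT prefrontal cortex, as for 32.8% of all genes. For Vip, Npy and Cck it held between WT hippocampus and WT prefrontal cortex, as for 27.7% of all genes.

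**Figure D2:**
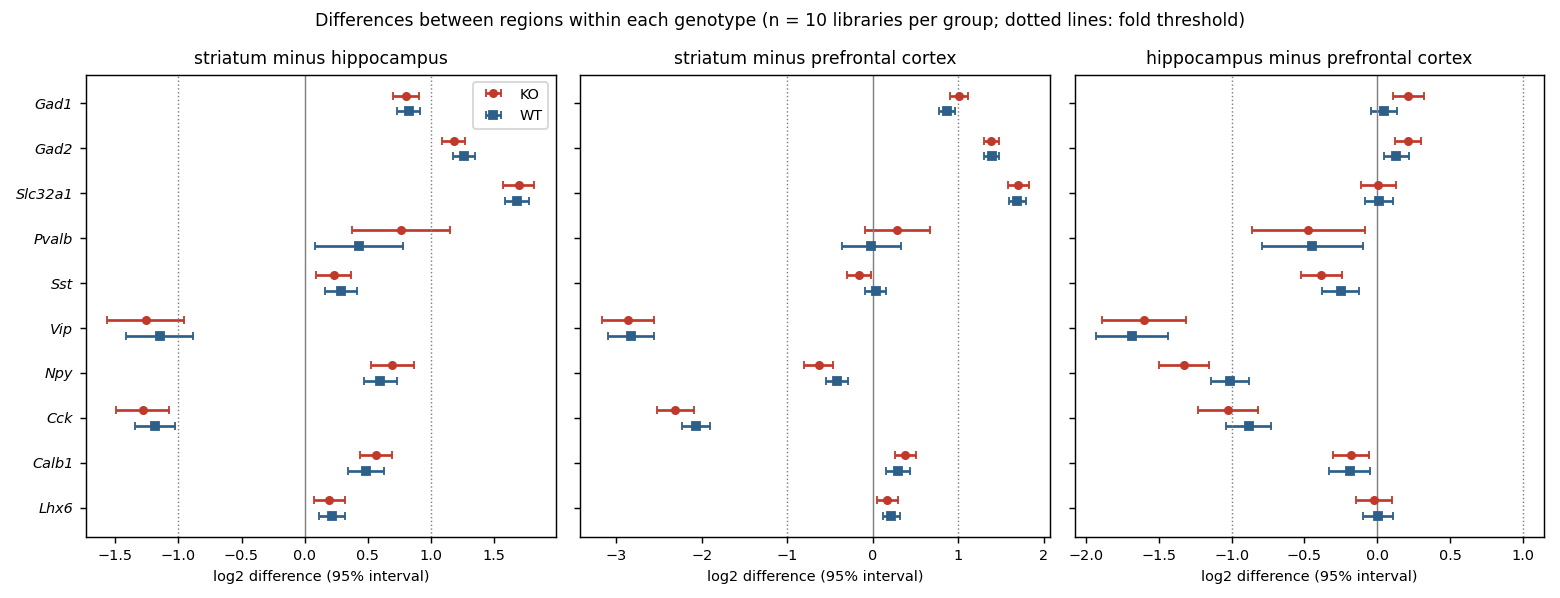
Log2 difference between regions (horizontal axes, with 95% intervals) for each member in KO (red circles, above) and WT (blue squares, below), n = 10 libraries per group; dotted lines mark a log2 difference of 1 in either direction. Slc32a1 and Gad2 lie right of the dotted line in both striatal panels, Vip and Cck left of it, and the KO and WT intervals overlap except for Npy between hippocampus and prefrontal cortex.

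The neuropeptide genes differed in how they ranked by region. Vip was the member that differed most. Over KO libraries Vip ran from 3.53 through a median of 6.72 to 11.5 CPM in the striatum, from 11.1 through 16.4 to 20.9 CPM in the hippocampus and from 43.7 through 47.2 to 57.1 CPM in the prefrontal cortex. Over WT libraries it ran from 2.61 through 7.47 to 9.59 CPM in the striatum, from 13.8 through 14.7 to 20.1 CPM in the hippocampus and from 42.1 through 48.9 to 61.5 CPM in the prefrontal cortex. No WT library of one region overlapped another region. Cck followed the same order, with means of 66.4 ± 16.9 (KO) and 69.8 ± 11.1 CPM (WT) in the striatum. Its means were 162 ± 10.1 (KO) and 159 ± 13.1 CPM (WT) in the hippocampus, and 329 ± 33.8 (KO) and 293.5 ± 31.4 CPM (WT) in the prefrontal cortex.

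Npy had its lowest level in the hippocampus, at 30.2 ± 3.16 (KO) and 30.9 ± 3.79 CPM (WT). Its striatal means were 48.7 ± 7.72 (KO) and 47.0 ± 4.12 CPM (WT), and its prefrontal means were 75.5 ± 10.5 (KO) and 62.6 ± 6.52 CPM (WT). Sst was more even, with 159 ± 11.7 CPM (KO) and 159 ± 11.7 CPM (WT) in the striatum, 136 ± 16.4 (KO) and 130.5 ± 16.1 CPM (WT) in the hippocampus and 177 ± 25.6 (KO) and 156 ± 16.4 CPM (WT) in the prefrontal cortex. In WT the order was striatum, prefrontal cortex, hippocampus, and striatum and prefrontal cortex did not differ beyond their spread. In KO the prefrontal mean was the highest. Lhx6, which acts upstream of Sst and Pvalb in developing interneurons, varied least between regions. It averaged 21.0 ± 2.05 (KO) and 20.4 ± 1.53 CPM (WT) in the striatum, 18.4 ± 1.74 (KO) and 17.5 ± 1.57 CPM (WT) in the hippocampus, and 18.6 ± 1.87 (KO) and 17.5 ± 1.28 CPM (WT) in the prefrontal cortex.

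Calb1 averaged 183 ± 16.5 (KO) and 172 ± 15.8 CPM (WT) in the striatum, 124 ± 15.5 (KO) and 123 ± 19.9 CPM (WT) in the hippocampus, and 140.0 ± 9.22 (KO) and 140.3 ± 6.51 CPM (WT) in the prefrontal cortex. Pvalb was the most variable member in the striatum. Its striatal libraries ran from 15.3 through 27.8 to 59.6 CPM in KO and from 15.1 through 21.7 to 49.2 CPM in WT, a coefficient of variation of 47.2% (KO) and 44.9% (WT). In the other regions that figure was 13.2% to 17.7%, with means of 19.4 ± 3.27 (KO) and 19.2 ± 2.71 CPM (WT) in the hippocampus and 26.9 ± 4.77 (KO) and 26.2 ± 3.47 CPM (WT) in the prefrontal cortex. The order of the 3 WT means was kept by 9 of the 10 members with RLE scaling and by 8 of 10 without scaling.

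Each subtype gene was also set against the GABA synthesis and loading genes of the same library, as the log2 ratio of its CPM to the mean log2 CPM of Gad1, Gad2 and Slc32a1. This ratio does not depend on how libraries were scaled and is a description with no test. Vip moved most: its ratio was -5.87 ± 0.62 (KO) and -5.88 ± 0.60 (WT) in the striatum, -3.34 ± 0.37 (KO) and -3.40 ± 0.20 (WT) in the hippocampus, and -1.57 ± 0.17 (KO) and -1.66 ± 0.18 (WT) in the prefrontal cortex (SD, n = 10 each). All 7 subtype genes had their lowest mean ratio in the striatum and their highest in the prefrontal cortex, Sst and Lhx6 included, whose levels differed between WT regions by at most 0.29 and 0.22 on the log2 scale. The denominator itself was 8.59 in WT striatum, 7.33 in WT hippocampus and 7.27 in WT prefrontal cortex. A gene with an even level thus has its lowest ratio in the striatum. In WT the Sst ratio was -1.28 ± 0.16 in the striatum, -0.31 ± 0.16 in the hippocampus and 0.00 ± 0.18 in the prefrontal cortex. Lhx6 stood at -4.25 ± 0.13, -3.21 ± 0.13 and -3.15 ± 0.16 in the same WT regions. The 2 synthesis genes also differed in balance: the log2 ratio of Gad1 to Gad2 was 0.51 ± 0.11 (KO) and 0.47 ± 0.12 (WT) in the striatum, 0.90 ± 0.07 (KO) and 0.92 ± 0.13 (WT) in the hippocampus, and 0.89 ± 0.10 (KO) and 1.0 ± 0.10 (WT) in the prefrontal cortex.

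**Figure D3:**
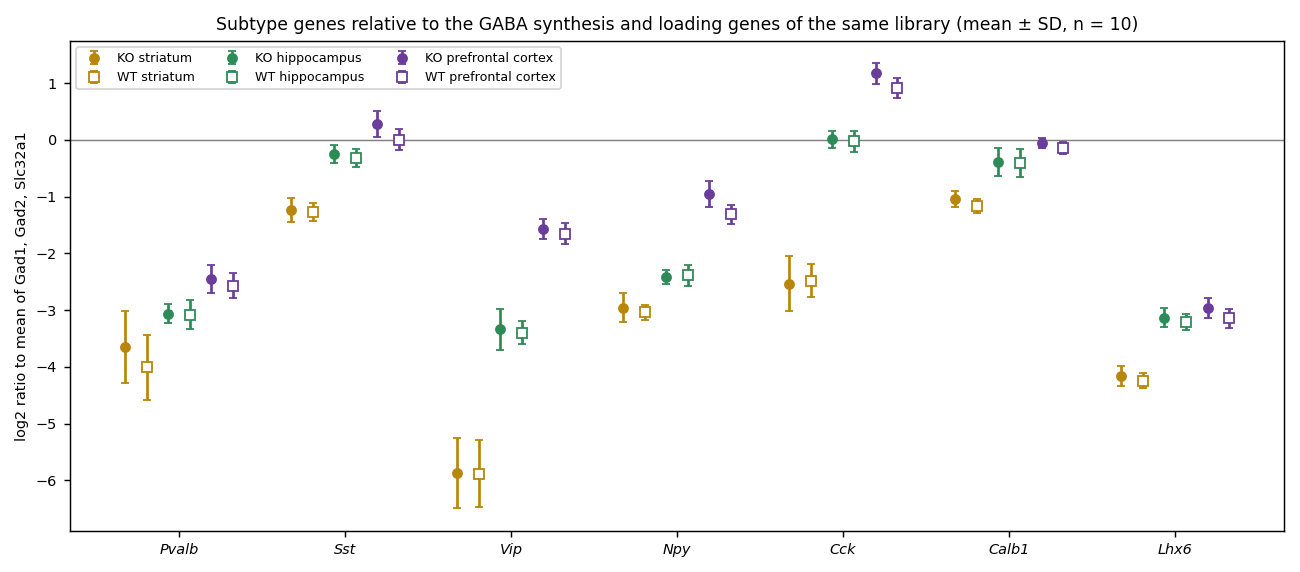
Log2 ratio of each subtype gene to the mean of Gad1, Gad2 and Slc32a1 in the same library (vertical axis), as mean ± SD of 10 libraries, KO filled and WT open, in striatum (gold), hippocampus (green) and prefrontal cortex (purple). Every gene is lowest in the striatum and highest in the prefrontal cortex, with Vip spanning -5.87 to -1.57 and Cck -2.54 to 1.17 in KO.

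Promoter sequence is shown for the 4 members called between regions in WT striatal contrasts, Slc32a1, Gad2, Vip and Cck, and for Sst, whose promoter holds the palindromic cAMP response element. Each is the 250 bases before the RefSeq start, 5′ to 3′ on the gene's strand, from RefSeq on GRCm38.p6, the build of the count table. Capitals mark the motifs searched on both strands: TGACGTCA (the full cAMP response element), its half-site TGACG, which the full element also contains, and TATAAA (the TATA box). Windows were found for 9 of the 10 members.
Slc32a1 (chr2:158610508-158610757, plus strand): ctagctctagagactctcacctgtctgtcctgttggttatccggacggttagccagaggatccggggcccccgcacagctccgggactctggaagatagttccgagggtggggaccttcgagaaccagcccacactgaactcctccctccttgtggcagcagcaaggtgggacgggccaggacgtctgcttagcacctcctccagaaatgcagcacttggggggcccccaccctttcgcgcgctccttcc
Gad2 (chr2:22622077-22622326, plus strand): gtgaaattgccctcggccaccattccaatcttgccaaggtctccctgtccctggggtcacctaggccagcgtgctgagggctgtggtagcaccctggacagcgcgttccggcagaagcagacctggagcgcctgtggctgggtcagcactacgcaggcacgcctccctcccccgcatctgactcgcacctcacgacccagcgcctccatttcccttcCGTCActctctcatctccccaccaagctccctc
Vip (chr10:5638968-5639217, plus strand): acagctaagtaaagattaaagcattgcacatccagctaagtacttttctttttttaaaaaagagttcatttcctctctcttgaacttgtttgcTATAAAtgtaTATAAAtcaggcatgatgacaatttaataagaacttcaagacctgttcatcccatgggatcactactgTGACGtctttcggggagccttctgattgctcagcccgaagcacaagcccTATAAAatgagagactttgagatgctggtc
Cck (chr9:121495695-121495944, minus strand): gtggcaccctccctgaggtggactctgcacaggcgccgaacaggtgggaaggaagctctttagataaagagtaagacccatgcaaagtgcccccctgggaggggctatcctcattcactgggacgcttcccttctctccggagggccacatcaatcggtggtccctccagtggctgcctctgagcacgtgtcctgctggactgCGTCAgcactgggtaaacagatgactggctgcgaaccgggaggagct
Sst (chr16:23890845-23891094, minus strand): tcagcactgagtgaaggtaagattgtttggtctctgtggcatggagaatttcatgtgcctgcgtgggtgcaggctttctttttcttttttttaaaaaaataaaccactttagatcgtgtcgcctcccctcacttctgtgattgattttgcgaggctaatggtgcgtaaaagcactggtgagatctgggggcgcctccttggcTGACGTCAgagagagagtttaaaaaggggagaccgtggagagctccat
The full element began 48 bases before the start of Sst, and 1.56% of all 32536 promoter windows held it. Vip had a half-site at 79 bases and TATAAA at 157, 147 and 30 bases before the start. Cck had a half-site on the opposite strand at 47 bases and Gad2 one at 33 bases. The half-site was in 17.9% and TATAAA in 12.3% of all windows, so the half-site is common. Slc32a1 held none of the 3 motifs in this window, and a match describes the letters only.

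Between KO and WT, 0 of the 10 members were called in any region. The call was an adjusted p under 0.05 in edgeR's quasi-likelihood F test with no fold threshold, and it was passed by 0.0514% of all genes in the striatum, 0.128% in the hippocampus and 0.117% in the prefrontal cortex. No member had KO and WT libraries that did not overlap, which held for 0.0186% of all genes in the striatum, 0.031% in the hippocampus and 0.0248% in the prefrontal cortex. The median log2 difference over the members was -0.01 in the striatum, 0.02 in the hippocampus and 0.01 in the prefrontal cortex, against 0.00 over all genes in each. Unadjusted p was under 0.05 for 0 members in the striatum, against 7.14% of all genes, for 0 in the hippocampus, against 8.14%, and for 5 in the prefrontal cortex, against 11.8%. DESeq2 called 0 members in the striatum, against 0.161% of all genes, 0 in the hippocampus, against 0.302%, and 2 in the prefrontal cortex, against 1.39%.

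In the striatum and hippocampus the intervals were narrow for most members. In the striatum Gad1 differed by -0.03 (95% interval -0.15 to 0.10), Gad2 by -0.06 (-0.15 to 0.03), Slc32a1 by -0.03 (-0.13 to 0.08) and Sst by 0.00 (-0.09 to 0.09) on the log2 scale. Pvalb gave the largest striatal difference, 0.35 ± 0.28, with an unadjusted p of 0.222 in edgeR and an interval from -0.23 to 0.93. In the hippocampus the largest was that of Vip, 0.07 ± 0.10, and the intervals of Gad1 (-0.06 to 0.05), Cck (-0.06 to 0.11) and Gad2 (-0.08 to 0.12) were the narrowest.

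The prefrontal cortex held the 5 members with an unadjusted p under 0.05, 2 lower and 3 higher in KO. Gad1 ran from 269 through a median of 282 to 328 CPM over KO libraries, against 291 through 334 to 368 CPM over WT libraries, and the groups overlapped. Its log2 difference was -0.18 ± 0.05, with edgeR p = 0.000682 and adjusted p = 0.106. Npy ran from 63.1 through 73.8 to 94.8 CPM over KO libraries, against 57.1 through 60.7 to 79.5 CPM over WT libraries. Its difference was 0.26 ± 0.07, with edgeR p = 0.00123 and adjusted p = 0.121. Sst ran from 151 through 172 to 242 CPM in KO and from 138 through 152 to 197 CPM in WT, a difference of 0.18 ± 0.07 (edgeR adjusted p = 0.319). Cck ran from 283 through 329 to 405 CPM in KO and from 241 through 290.1 to 342 CPM in WT, a difference of 0.16 ± 0.06 (edgeR adjusted p = 0.319). Gad2 ran from 144 through 157 to 165 CPM in KO and from 149 through 163 to 178 CPM in WT, a difference of -0.07 ± 0.03 (edgeR adjusted p = 0.398). Vip (-0.02 ± 0.06), Pvalb (0.03 ± 0.09), Calb1 (-0.01 ± 0.04), Slc32a1 (-0.05 ± 0.04) and Lhx6 (0.08 ± 0.05) had an unadjusted p over 0.05.

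**Figure D4:**
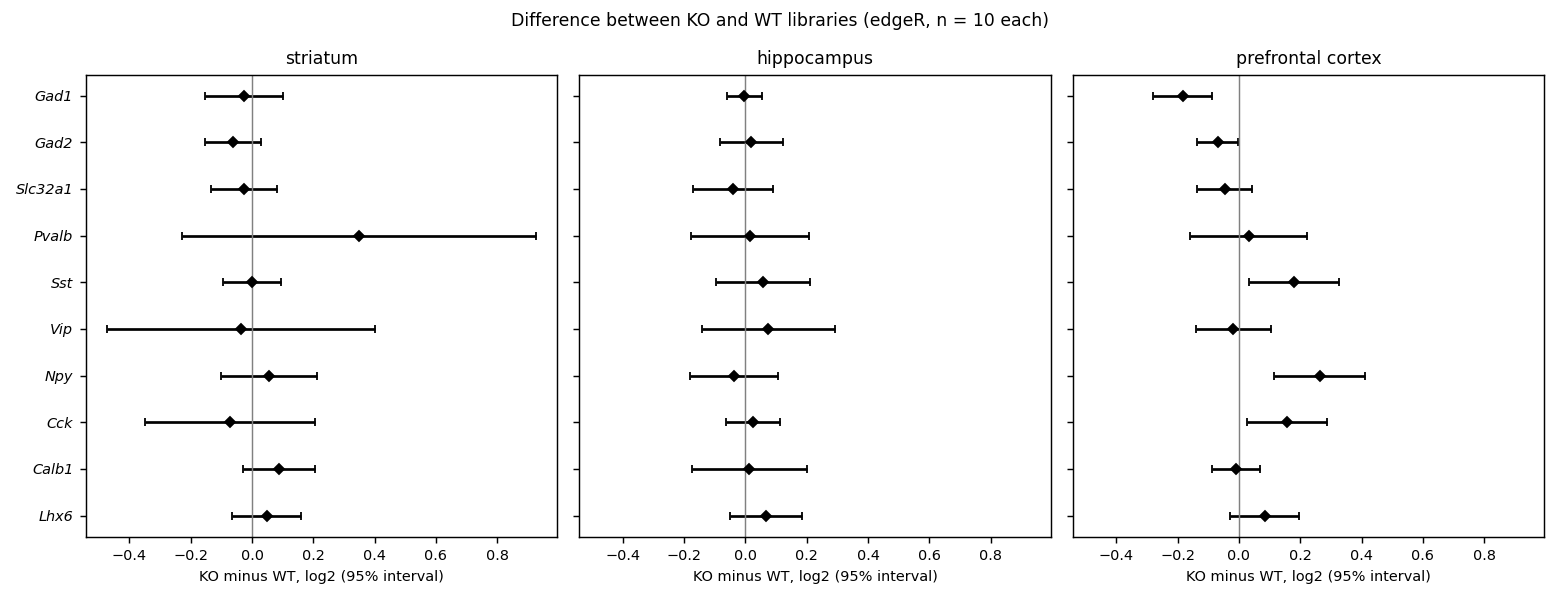
Log2 difference of KO minus WT for each member in striatum, hippocampus and prefrontal cortex (horizontal axes on 1 scale, with 95% intervals; n = 10 libraries per genotype). The prefrontal intervals of Gad1 and Gad2 lie left of 0 and those of Npy, Sst and Cck right of it, and the striatal interval of Pvalb, -0.23 to 0.93, is the widest.

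Some prefrontal calls changed with the setting or the libraries used. DESeq2 called Gad1 (adjusted p = 0.0241) and Npy (adjusted p = 0.0332), a single edgeR fit of all 60 libraries called Gad1 (adjusted p = 0.0448), and edgeR without KO replicate 1 called Gad1 (adjusted p = 0.0486). The fit of all 60 libraries called 1.29% of all genes there and the fit without KO replicate 1 called 0.331%. Without KO replicate 10, the library with the highest Sst, Npy and Cck, the edgeR difference of Sst was 0.12 ± 0.05 and that of Npy 0.22 ± 0.06. Without WT replicate 6, the WT library highest in those genes, they were 0.22 ± 0.06 and 0.31 ± 0.06.

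Markers of the olfactory bulb, which lies in front of the prefrontal cortex, moved with genotype there. All 4 markers of bulb glutamatergic neurons (Eomes, Tbx21, Cdhr1 and Doc2g) had an unadjusted p under 0.05, against 11.8% of all genes. Their median log2 difference was -1.79, and 0 were called. Their summed level ran from 4.31 through a median of 6.91 to 50.8 CPM over KO libraries, against 5.48 through 48.0 to 98.3 CPM over WT libraries. The same sum ran from 7.27 to 14.12 CPM over KO and from 8.009 to 13.36 CPM over WT striatal libraries. Over hippocampal libraries it ran from 10.97 to 17.36 CPM (KO) and from 10.32 to 18.8 CPM (WT). The KO prefrontal median lay just below these ranges and the WT prefrontal median far above them. The difference in this sum thus rests mainly on high WT levels. All 5 markers of bulb GABA and dopamine neurons (Th, Scgn, Sp8, Trh and Calb2) also had an unadjusted p under 0.05, beside the same share of all genes. Of these, Scgn was called at -2.20 ± 0.44 with edgeR adjusted p = 0.0497. The 2 KO libraries with the most Gad1, replicates 1 and 7 at 328 and 322 CPM, had the 2 highest mean log2 levels of the glutamatergic markers among KO libraries. The WT library with the least Gad1, replicate 7 at 291.0 CPM, had the lowest among WT libraries. Prefrontal Gad1 followed the sum of the glutamatergic markers over the 20 libraries, with Pearson r = 0.87 (adjusted permutation p = 0.00055) and Spearman rho = 0.881 (adjusted permutation p = 0.000943), r = 0.809 within KO and 0.752 within WT. Without the 2 libraries farthest from the median, r was 0.845. Here and below, the permutations mixed KO and WT libraries, so a p also holds any shift between genotypes that both levels share. With the mean log2 level of these markers as a covariate, the Gad1 difference was -0.05 ± 0.04 (edgeR p = 0.28), that of Gad2 0.00 ± 0.04, and that of Npy 0.22 ± 0.10 (edgeR p = 0.0312). The difference was 0.09 ± 0.09 for Sst and 0.12 ± 0.08 for Cck in that fit. The covariate itself differed by genotype, with a mean of 0.22 ± 1.32 in KO and 2.35 ± 1.35 in WT (SD, n = 10 each). In this fit the part of genotype and the part of bulb tissue thus cannot be told apart, and the cause of the differences was not tested.

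Sst, Npy and Cck, whose prefrontal differences were positive and did not pass the call, moved with a different list. The summed level of 8 cortical excitatory neuron markers was 2163 to 2417 CPM in KO and 2071 to 2358 CPM in WT prefrontal libraries. Of the 8, 4 had an unadjusted p under 0.05, against 11.8% of all genes. Over the 20 libraries Cck (r = 0.77, rho = 0.83), Npy (r = 0.758, rho = 0.711) and Sst (r = 0.705, rho = 0.737) followed that sum, with adjusted permutation p-values of at most 0.0099. Within KO the r was 0.635, 0.669 and 0.441 for these genes, and within WT 0.758, 0.715 and 0.863. Without the 2 farthest libraries r was 0.756, 0.717 and 0.74. Oligodendrocyte markers summed to 1242 to 2182 CPM in KO and 1106 to 1477 CPM in WT prefrontal libraries. Of these 6 markers, 5 had an unadjusted p under 0.05, beside the same share of all genes. The part of these tissue levels in the differences of Sst, Npy and Cck was not tested.

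Blood and microglial markers also differed between the genotypes by unadjusted p. Of 5 erythrocyte markers, 4 in the striatum, 5 in the hippocampus and 5 in the prefrontal cortex had an unadjusted p under 0.05. The shares of all genes there were 7.14%, 8.14% and 11.8%. The median log2 differences of these markers were -0.31, -0.57 and -0.58, and 0 were called. Their sum was 208 to 371 CPM in KO and 262 to 530.1 CPM in WT striatum, 198 to 378 CPM in KO and 228 to 622 CPM in WT hippocampus, and 299.8 to 619 CPM in KO and 389 to 888 CPM in WT prefrontal cortex. Prefrontal Gad1 followed that sum too (r = 0.634, rho = 0.614, adjusted permutation p = 0.0259 and 0.0404), with r = 0.339 within KO, 0.404 within WT and 0.559 without the 2 farthest libraries. The means of both were lower in KO, and these p-values also hold that shift. Of 6 microglia markers, 2 in the striatum, 3 in the hippocampus and 3 in the prefrontal cortex had an unadjusted p under 0.05, beside the same shares of all genes. Their medians were 0.06, 0.05 and 0.08, and their prefrontal sum was 403 to 453 CPM in KO and 376 to 438 CPM in WT. The part of these markers in the member differences was not tested.

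Similar relations were found in the other regions. In all, 330 relations between a member and a marker sum were computed within regions, and 40 passed at an adjusted p under 0.05 by both coefficients (16 in the striatum, 12 in the hippocampus and 12 in the prefrontal cortex). Striatal Pvalb followed the sum of 6 oligodendrocyte markers (r = 0.91, rho = 0.911, adjusted permutation p = 0.00055 and 0.000943). The r was 0.935 within KO, 0.865 within WT and 0.888 without the 2 farthest libraries. The 3 KO libraries with the most Pvalb, at 50.2, 52.0 and 59.6 CPM, had the 3 highest oligodendrocyte sums of KO, 9742 to 10230 CPM. The sum ran from 5310 to 10230 CPM over KO and from 4950 to 9668 CPM over WT striatal libraries, and its part in the Pvalb difference was not tested. Striatal Pvalb also followed hypothalamus and septum markers (r = 0.696, rho = 0.868, adjusted permutation p = 0.00521 and 0.000943), with r = 0.574 within KO, 0.906 within WT and 0.914 without the 2 farthest libraries. It followed astrocyte markers (r = 0.721, rho = 0.726, adjusted permutation p = 0.00615 and 0.00854), with r = 0.824 within KO, 0.527 within WT and 0.692 without the 2 farthest, and choroid plexus markers (r = 0.597, rho = 0.606, adjusted permutation p = 0.033 and 0.0424), with r = 0.511, 0.704 and 0.478 in the same order. In the striatum the hypothalamus and septum sum was 41.9 to 146 CPM in KO and 41.7 to 73.4 CPM in WT, the astrocyte sum 1305 to 1560 CPM in KO and 1335 to 1566 CPM in WT, and the choroid plexus sum 21.9 to 1132 CPM in KO and 33.9 to 1311 CPM in WT. The part of these sums in the Pvalb difference was not tested either.

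Striatal Cck (r = 0.899, rho = 0.851) and Vip (r = 0.842, rho = 0.832) followed cortical excitatory markers, whose sum was 460.2 to 1203 CPM in KO and 564 to 1010 CPM in WT striatum. Within genotypes these r were 0.882 (KO) and 0.941 (WT) for Cck, and 0.885 (KO) and 0.901 (WT) for Vip. Without the 2 farthest libraries they were 0.854 and 0.777, and their 4 adjusted permutation p-values were at most 0.00165. Hippocampal Slc32a1 followed striatal projection neuron markers (r = 0.914, rho = 0.77, adjusted permutation p = 0.00055 and 0.00429), with r = 0.954 within KO, 0.886 within WT and 0.812 without the 2 farthest libraries. The 2 hippocampal libraries with the most Slc32a1, KO replicate 2 at 87.7 CPM and WT replicate 8 at 81.5 CPM, also had the 2 highest sums of those markers, 510.1 CPM in KO and 487.6 CPM in WT. Hippocampal Slc32a1 also followed hypothalamus and septum markers (r = 0.777, rho = 0.761, adjusted permutation p = 0.00165 and 0.00432), with r = 0.788 within KO, 0.767 within WT and 0.674 without the 2 farthest libraries, and choroid plexus markers (r = 0.698, rho = 0.78, adjusted permutation p = 0.00686 and 0.00183), with r = 0.639, 0.761 and 0.682 in the same order. It ran against the olfactory bulb glutamatergic markers (r = -0.706, rho = -0.807, adjusted permutation p = 0.00723 and 0.000943), with r = -0.643, -0.763 and -0.63. In the hippocampus the hypothalamus and septum sum was 75.0 to 122 CPM in KO and 73.3 to 116 CPM in WT, the choroid plexus sum 38.5 to 3046 CPM in KO and 53.2 to 2666 CPM in WT, and the bulb glutamatergic sum 10.97 to 17.4 CPM in KO and 10.3 to 18.8 CPM in WT. Relations of other members with these lists are among the 40 that passed and are not described one by one.

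**Figure D5:**
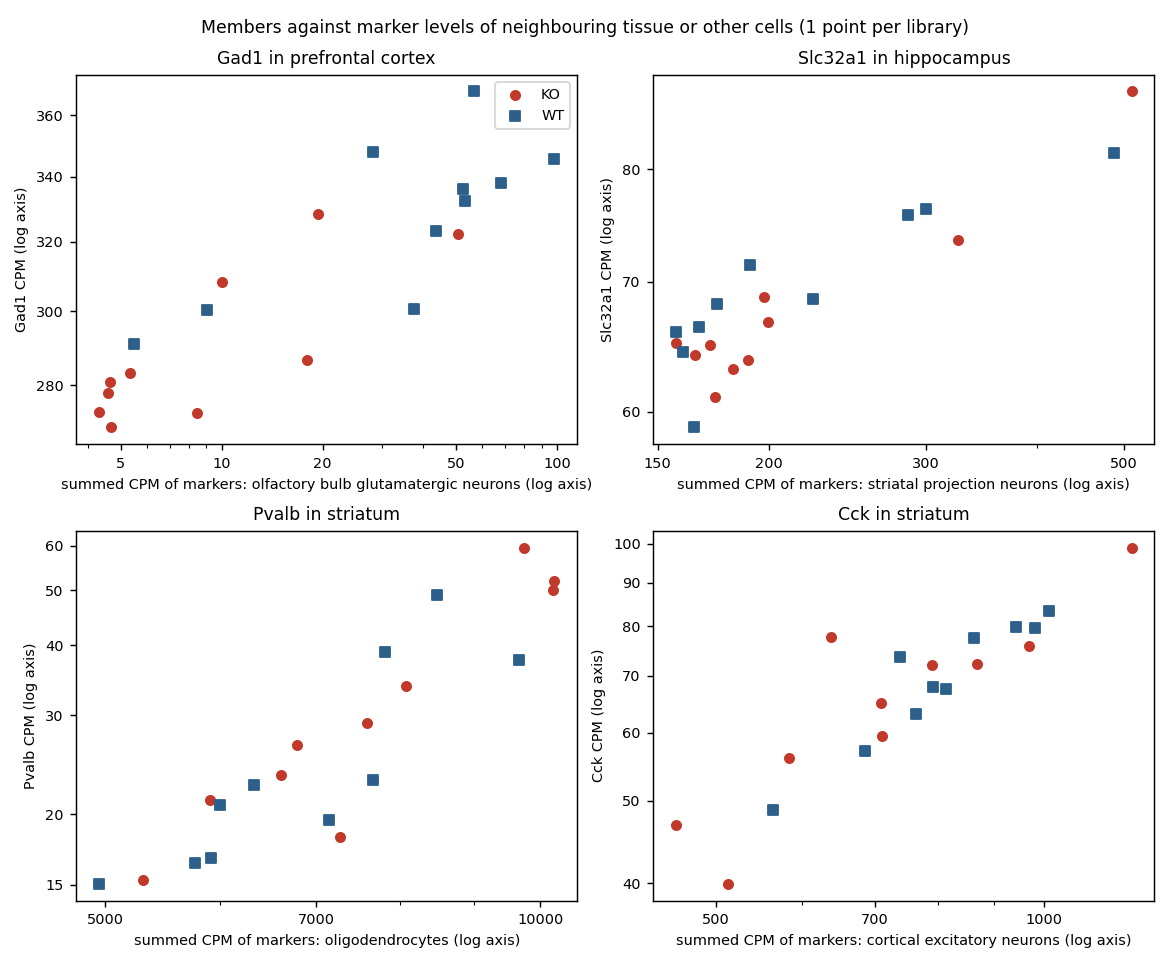
Member CPM (vertical log axes) against the summed CPM of a marker list (horizontal log axes), 1 point per library, KO as red circles and WT as blue squares: prefrontal Gad1 against olfactory bulb glutamatergic markers, hippocampal Slc32a1 against striatal projection neuron markers, striatal Pvalb against oligodendrocyte markers and striatal Cck against cortical excitatory markers. Points of both genotypes rise together in each panel, with r of 0.87, 0.914, 0.91 and 0.899.

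On counts summed over the 3 equally numbered libraries of a genotype, 0 members were called, against 0.162% of all genes, and 2 had an unadjusted p under 0.05, against 10.5% of all genes. They were Npy, at 0.13 ± 0.05 (edgeR adjusted p = 0.327), and Lhx6, at 0.06 ± 0.03 (edgeR adjusted p = 0.471). Interaction terms of genotype and region called 0 members and 0.0248% of all genes. The unadjusted edgeR p was 0.0171 for Npy and 0.0276 for Gad1, and the adjusted p was 1 for both, where 3.96% of all genes had an unadjusted p under 0.05.

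Other genes of GABA neurons were taken as 4 lists. In KO against WT, 0 genes of any list were called in any region, in the sums or in the interaction. In the prefrontal cortex their median log2 differences were -0.02 (GABA metabolism, release and uptake), -0.08 (lineage transcription factors), 0.02 (parvalbumin and somatostatin cells) and -0.01 (Vip, Cck, Lamp5 and others), against 0.00 over all genes. The list of GABA metabolism, release and uptake had 11 genes, and 0, 1 and 1 had an unadjusted p under 0.05 in striatum, hippocampus and prefrontal cortex, where the shares of all genes were 7.14%, 8.14% and 11.8%. The GABA transporter gene Slc6a11 differed in the prefrontal cortex by -0.17 ± 0.07 (edgeR adjusted p = 0.371). Striatal Slc6a13 differed by -0.22 ± 0.16. Hippocampal Slc6a11 differed by -0.05 ± 0.05 and prefrontal Abat by -0.05 ± 0.03.

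Of 16 interneuron lineage transcription factors, 0 of 16 in the striatum, 2 of 16 in the hippocampus and 5 of 15 tested in the prefrontal cortex had an unadjusted p under 0.05 (all genes: 7.14%, 8.14% and 11.8%). Prefrontal Dlx1 differed by -0.33 ± 0.10 (edgeR adjusted p = 0.148). Hippocampal Maf differed by 0.11 ± 0.05 and Nr2e1 by 0.10 ± 0.04, and striatal Sox6 by -0.09 ± 0.05. Of 17 genes of parvalbumin and somatostatin cells, 1 of 17, 3 of 16 and 2 of 16 tested had an unadjusted p under 0.05 in striatum, hippocampus and prefrontal cortex, beside the same shares of all genes. Hippocampal Nos1, the neuronal nitric oxide synthase gene, differed by 0.22 ± 0.05 (edgeR adjusted p = 0.0915) and Syt2, a synaptotagmin gene, by -0.31 ± 0.12. Striatal Erbb4, a neuregulin receptor gene, differed by -0.14 ± 0.06 and Elfn1 by -0.15 ± 0.08, and prefrontal Nxph1 by -0.09 ± 0.04 and Reln by -0.26 ± 0.12.

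Of 16 genes of Vip, Cck, Lamp5 and other interneurons, 0, 4 and 3 had an unadjusted p under 0.05 in striatum, hippocampus and prefrontal cortex (all genes: 7.14%, 8.14% and 11.8%). Hippocampal Kit, a receptor tyrosine kinase gene, came closest at -0.31 ± 0.06 (edgeR adjusted p = 0.0563), followed by the cannabinoid receptor gene Cnr1 at 0.18 ± 0.05 (edgeR adjusted p = 0.249). Kit, Nos1, Elfn1 and Reln lie on chromosome 5, as does Adgrl3, and none of the 10 members does. Prefrontal Calb2, the calretinin gene, which is also in the list of bulb markers above, differed by -0.95 ± 0.22 (edgeR adjusted p = 0.0942), and the somatostatin receptor gene Sstr2 by 0.35 ± 0.10 (edgeR adjusted p = 0.165). Striatal Calb2 differed by 0.63 ± 0.45 and Chrna2 by -0.41 ± 0.31. In the sums 0, 3, 2 and 2 genes of the lists, in the order above, had an unadjusted p under 0.05, against 10.5% of all genes, and in the interaction 1, 3, 3 and 3, against 3.96%. In the sums, Kit differed by -0.17 ± 0.04 (edgeR adjusted p = 0.0865), Sstr2 by 0.17 ± 0.08, Nos1 by 0.11 ± 0.04, Lhx8 by 0.21 ± 0.10, Nr2e1 by 0.08 ± 0.03, Dlx2 by -0.13 ± 0.06 and Slc6a13 by -0.26 ± 0.20. The interaction gave an unadjusted edgeR p of 2.11e-05 for Kit (adjusted p = 0.0568), 0.0034 for Calb2, 0.00406 for Dlx1, 0.00921 for Reln, 0.0381 for Elfn1 and 0.0383 for Slc6a11.

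Between WT regions more genes of the lists were called, as were more of all genes. The shares of all genes called higher and lower were 5.12% and 5.06% between striatum and hippocampus, 7.07% and 4.54% between striatum and prefrontal cortex, and 5.98% and 4.16% between hippocampus and prefrontal cortex. Of the 16 transcription factors, 4 were called higher and 2 lower in striatum than hippocampus, and 6 higher and 2 lower in striatum than prefrontal cortex. Nkx2-1, which specifies medial ganglionic eminence cells, was higher in the striatum by 3.28 ± 0.19 and 6.24 ± 0.26 on the log2 scale, and Dlx6 by 2.88 ± 0.12 and 2.75 ± 0.12. Prox1 was lower in striatum than hippocampus at -2.14 ± 0.12, and Sp9 higher in striatum than prefrontal cortex by 2.48 ± 0.14. Between hippocampus and prefrontal cortex 3 were called higher, Prox1 by 3.44 ± 0.13, Nkx2-1 by 2.96 ± 0.31 and Nr2f2 by 1.80 ± 0.16, and 0 lower. Prox1 also marks dentate granule cells. The list's median log2 difference was 0.16 between striatum and hippocampus, 0.14 between striatum and prefrontal cortex and -0.11 between hippocampus and prefrontal cortex, against 0.00, 0.01 and 0.02 over all genes.

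Among the 17 genes of parvalbumin and somatostatin cells, 5 were called higher and 1 lower in striatum than hippocampus (all genes: 5.12% and 5.06%), 4 higher and 2 lower in striatum than prefrontal cortex (7.07% and 4.54%), and 2 higher and 0 lower in hippocampus than prefrontal cortex (5.98% and 4.16%). Lhx8, a factor of cholinergic neurons, was higher in the striatum by 5.40 ± 0.24 and 8.68 ± 0.33, Tac1 by 3.76 ± 0.18 and 3.60 ± 0.17, and Chodl by 1.93 ± 0.26 in both comparisons. Lhx8 was higher in hippocampus than prefrontal cortex by 3.28 ± 0.56 and Nos1 by 1.32 ± 0.07. Tac1 is also expressed by striatal projection neurons. The medians of this list in the same comparisons were -0.06, -0.12 and -0.06.

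Of the 16 genes of the Vip, Cck and Lamp5 list, 4 were called higher and 3 lower in striatum than hippocampus (all genes: 5.12% and 5.06%), 2 higher and 5 lower in striatum than prefrontal cortex (7.07% and 4.54%), and 1 higher and 4 lower in hippocampus than prefrontal cortex (5.98% and 4.16%). Penk, the proenkephalin gene, also of striatal projection neurons, was higher in the striatum by 4.32 ± 0.31 and 4.66 ± 0.32. Htr3a, a serotonin receptor gene of Vip and Cck interneurons, was lower in the striatum at -2.32 ± 0.12 and -1.69 ± 0.12. Calb2 was lower in striatum than hippocampus at -2.21 ± 0.22, and Slc17a8 higher in striatum than prefrontal cortex at 1.85 ± 0.09. Lamp5 was lower in hippocampus than prefrontal cortex at -2.54 ± 0.08, Crh at -1.92 ± 0.17 and Chrna2 at -1.61 ± 0.28. The medians of this list were 0.08, -0.22 and 0.17, and those of the GABA metabolism list 0.02, -0.12 and -0.10. Of the GABA metabolism list, edgeR called 0 between striatum and hippocampus, where 9 of 11 had an unadjusted p under 0.05, against 68.9% of all genes. Abat, the GABA transaminase gene, was higher in striatum than prefrontal cortex by 1.02 ± 0.03. Slc6a13 was lower in striatum than prefrontal cortex at -1.97 ± 0.21 and in hippocampus than prefrontal cortex at -1.24 ± 0.20.

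Finally, members were compared by how they varied within groups, as Pearson r of log2 CPM over the 60 libraries after each group's mean was subtracted. This is a description without a test, and libraries share depth and dissection. Among the members, r was highest for Vip with Cck (0.748), Gad1 with Pvalb (0.654), Gad2 with Slc32a1 (0.631), Sst with Lhx6 (0.56) and Sst with Npy (0.525). It was lowest for Slc32a1 with Vip (-0.568). Gad1 and Gad2 gave 0.463. Over all genes, the 2 most alike were Vamp1 and Kcnab3 for Pvalb (0.876 and 0.873), Olfm1 and Nrn1 for Cck (0.891 and 0.88), Fam81a and Rap2a for Vip (0.848 and 0.845) and Adcy5 and Rarb for Slc32a1 (0.827 and 0.76). For Gad1 they were Inpp5j and Fgf1 (0.736 and 0.709), for Gad2 Plce1 and Abat (0.691 and 0.678), for Sst Gap43 and Rab26 (0.765 and 0.697) and for Npy Selenow and Zmat2 (0.708 and 0.704). Lhx6 was most like Cacnb1 and Gpi1 (0.666 and 0.659), and Calb1 had the lowest values, with Cdk17 and Kirrel3 (0.624 and 0.611).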

How the data were processed

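The deposited table holds raw read counts per gene, as whole numbers, for 60 libraries. The build was GRCm38, and STAR 2.5.2b, DESeq2 1.16.1, bedtools, cutadapt 1.16 and FastQC 0.11.4 are named in no given role, per the submitters' processing notes. Per the file headers, a feature is a whole gene, so reads in introns count. No member overlapped another feature. The sources used here do not give the strand setting of the count.

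The counts were fitted as deposited with edgeR 4.0.16 in R 4.3.3 (TMM scaling, filterByExpr, robust quasi-likelihood F test, Benjamini-Hochberg over all genes tested, threshold 0.05, checked on simulated data). KO and WT were fitted on the 20 libraries of a region, regions on the 30 libraries of a genotype, and the interaction on all 60. Intervals are 95% and come from the fit, and they cover the spread between libraries. The alternatives were DESeq2 1.42.0, RLE scaling, no filter, a filter of at least 1 CPM in at least 10 libraries, a replicate block, a fit of all 60 libraries, an olfactory bulb covariate and leaving out each library. Relations to marker sums used log2 CPM and 100000 permutations (two-sided, and the smallest p they can give is 1e-05). They were adjusted over all 330 and were added after the data had been seen. The permutations ran over all 20 libraries of a region, both genotypes together.

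The members and gene lists were chosen with earlier results of these data known. The genes named are the 10 members, Adgrl3, the 2 of smallest p per list and KO comparison where none was called, up to 3 called genes of largest difference per list and WT region comparison, and the 2 genes most like each member. Some list genes that this rule names are not reported here. Marker genes are named beside the result they moved with.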

Additional observations from a re-analysis of the deposited data

Results flagged for a closer look

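In each of 60 sets of 10 libraries, made of 1 member in 1 group, the gap between the most extreme library and its nearest neighbour was set against the range of the set. This marked 8 sets, and chance marks about 1 in 20. WT prefrontal replicate 6 accounted for 4 of them, with Pvalb at 34.4 CPM (next 28.5), Sst at 197 CPM (next 166), Vip at 61.5 CPM (next 52.2) and Npy at 79.5 CPM (next 66.4). WT hippocampal replicate 6 had Vip at 20.1 CPM (next 16.6). KO prefrontal replicate 10 had Sst at 242 CPM (next 190.4). KO hippocampal replicate 2 had Slc32a1 at 87.7 CPM (next 73.6), and this library had the highest sum of striatal projection neuron markers of its group, 510.1 CPM. WT striatal replicate 8 had Npy at 57.4 CPM (next 48.9).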

How the results depend on the processing

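Region contrasts kept their counts of genes and of members within 1.5 times under each alternative run. The order of WT region means was kept by 9 (RLE) and 8 (no scaling) of 10 members, and that of the ratios by 7 of 7 subtype genes with Gad2 as denominator. Gad2 itself was highest in the striatum. Counts between KO and WT moved more. Beside 8 genes in the striatum, DESeq2 called 25, the replicate block 3 and the fit of all 60 libraries 22, with 5 to 15 when a library was left out (15 without WT replicate 5, and 5 without KO replicate 3 or 9 or WT replicate 1, 2, 3, 4 or 10). Beside 20 in the hippocampus, DESeq2 called 47 and the block 5, with 12 to 26 when a library was left out (12 without KO replicate 9 or 10 or WT replicate 6, 9 or 10, and 13 without KO replicate 3). Beside 18 in the prefrontal cortex, DESeq2 called 214, the block 10, the fit of all 60 libraries 208 and the bulb covariate 6. Leaving out a library there gave 9 to 68, with 68 without KO replicate 7, 51 without KO replicate 1 and 40 without KO replicate 5 or WT replicate 7, 9 without KO replicate 3 or 9 or WT replicate 1, 3, 9 or 10, 10 without KO replicate 6 or WT replicate 8, and 11 without KO replicate 4 or 10. Beside 27 in the sums, DESeq2 called 123, the block 11 and 60 unsummed libraries 650, which treats equally numbered libraries as separate, and leaving out a set gave 19 to 48 (48 without KO replicate 5, 41 without KO replicate 7). Beside 4 in the interaction, RLE, no filter and the 1 CPM filter called 1 each and the block 0. In the prefrontal cortex 0 members were called in edgeR, 2 with DESeq2 (Gad1 and Npy), 1 in the fit of all 60 libraries (Gad1) and 0 to 1 when a library was left out (Gad1, without KO replicate 1, log2 difference -0.206). The prefrontal Gad2 difference, -0.07, was 0.002 with the bulb covariate. Of 550 results for single members, leave-one-out fits not counted, 546 kept their side of the threshold with no change of sign at an unadjusted p under 0.05 in either fit. With the lowest and highest leave-one-out fits counted too, there were 24 sign changes with an unadjusted p over 0.05 in both fits. The cause of these shifts was not tested.

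Replicate numbers were checked as pairs. Within a genotype, same-numbered libraries of different regions deviated together (median r = 0.327 in KO and 0.335 in WT, against -0.0363 and -0.0324 for other numbers). Of these pairs, 28 of 30 in KO and 29 of 30 in WT were over 0.1. Of pairs with other numbers, 43 of 270 in KO and 42 of 270 in WT were. A library matched its own number best in 6 to 10 of 10 cases. The main region and interaction fits treated these libraries as separate, so their p-values leave this likeness out. With a replicate block, as many members were called in each region comparison as in the main fits. In the interaction the block gave more genes at an unadjusted p under 0.05 and called fewer. Between KO and WT, 2 of 10 (striatum), 2 of 10 (hippocampus) and 3 of 10 (prefrontal cortex) same-numbered pairs were over 0.1. For other numbers 34 of 90, 36 of 90 and 31 of 90 pairs were. The main fits thus did not treat KO and WT libraries of a number as pairs. The sums join equally numbered libraries of a genotype. In KO against WT, the replicate block joins the KO and WT libraries of a number. The values above give no ground for that pairing. This block and its counts are thus no check on the KO and WT differences. Under the block the prefrontal differences were -0.18 ± 0.05 for Gad1 (adjusted p = 0.146) and 0.26 ± 0.06 for Npy (adjusted p = 0.143).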
